A study of Mus musculus with 30 samples.

Results

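The genes described here build the chemical synapse: 22 act in synaptic vesicles and transmitter release, 12 are postsynaptic receptors or scaffolds, and 2 are adhesion or secreted synaptic proteins. They were taken as a list of 36 gene symbols. A gene was represented by the probe set of its symbol that had the highest mean over all arrays, and 30 of the 36 genes had a probe set with that symbol alone, out of 12393 genes measured in the series. Those 30 comprise 19 vesicle and release genes, 10 receptor and scaffold genes and the secreted pentraxin Nptx1. No value is given for Sv2b, Rims1, Slc17a7, Grin1, Grm5 and Nrxn3, which the probe annotation used here does not list. Between them the 30 genes had 57 probe sets, and 19 genes had several.

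The samples were retinas of mouse pups in a model of oxygen-induced retinopathy (OIR), in which 75% oxygen, breathed for 5 days from P7 (postnatal day 7), removes retinal capillaries and leaves the tissue hypoxic on return to room air. Pups raised in normoxia and OIR pups, both without injection, were measured beside 8 OIR groups that had received an injection into the vitreous, either at P5, before oxygen, or at P12, on return to room air. The injection was saline, 100000 endothelial colony-forming cells (ECFC), 10000 CD34+ cells, or both together (110000 cells, ECFC+CD34). Each of the 10 groups had 3 arrays, each from 1 retina of 1 pup. The sources used here do not give the strain, the litters or the species of the injected cells. The sample labels give P17 for every retina, whereas the series text pairs injection at P5 with collection at P12, so a P5 group and any other group may differ in age at collection as well as in treatment.

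At a chemical synapse, SNARE proteins on the vesicle (Vamp1, Vamp2) and on the target membrane (Snap25, Stx1a, Stx3) zip together to fuse the membranes. Synaptotagmins sense calcium or regulate fusion, complexins hold and release the SNARE assembly, and synapsins tether the reserve of vesicles. Glutamate, GABA and glycine receptors on the next cell receive the signal. The retina uses ribbon synapses in photoreceptors and bipolar cells, where Stx3 and Cplx3 serve, and conventional synapses in amacrine cells, where Stx1a, Syn1, Cplx1 and Cplx2 serve. Ganglion cells receive both kinds and carry AMPA, NMDA, GABA and glycine receptors.

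The upstream sequences of Gria2 and Syn1 are shown because both genes fell in the main comparison below and because their windows alone among these genes held an RE1-like element, the site that the repressor REST binds in neuronal genes. Of the 36 genes, 27 had a start-site window in the RefSeq table for GRCm38.p6 (37 windows, each 250 bases before to 50 after a start). RE1 was searched on both strands as TTCAGCACC, any 2 bases and GGACAGCGC, with at most 2 mismatches in the 18 letters. It was found in 2 of the 37 windows (5.4%) and in 12 of all 32851 windows (0.0365%). The 250 bases before the start of Gria2 (chr3:80802836-80803085, minus strand) hold it on the opposite strand with 1 mismatch, and those of Syn1 (chrX:20920919-20921168, minus strand) hold it on the gene's strand with 2 mismatches. Capitals mark the match.
Gria2: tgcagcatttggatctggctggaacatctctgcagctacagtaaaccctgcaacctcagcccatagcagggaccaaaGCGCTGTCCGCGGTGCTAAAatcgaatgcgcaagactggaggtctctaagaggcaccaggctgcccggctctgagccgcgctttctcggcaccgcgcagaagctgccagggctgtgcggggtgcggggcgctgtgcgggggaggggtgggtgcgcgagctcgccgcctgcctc
Syn1: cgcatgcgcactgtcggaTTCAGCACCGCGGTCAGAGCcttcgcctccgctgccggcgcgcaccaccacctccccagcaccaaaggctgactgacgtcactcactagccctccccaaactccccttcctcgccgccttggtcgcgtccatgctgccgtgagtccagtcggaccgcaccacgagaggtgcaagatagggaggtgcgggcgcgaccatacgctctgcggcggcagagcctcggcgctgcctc
The cyclic AMP element TGACGTCA lay in 1 member window, that of Syn1 (2.7% of member windows, 1.79% of all). The GC box GGGCGG lay in 17 member windows (45.9%, against 35.7% of all) and the core CTAATC, bound by the photoreceptor factor CRX, in 4 (10.8%, against 6.46%). Members may have several windows, and a match describes letters, not binding.

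Values are log2 intensities as the authors deposited them, so a difference of 1 is a doubling. A level is comparable between arrays for the same probe set, but not between genes. Array medians ran from 8.16 to 8.49, the correlation between arrays of the same group from 0.964 to 0.997 across probe sets, and 0 pairs of arrays were identical. Rod markers, which define retina, averaged 13.1 to 13.4 in all 30 arrays. Lens markers averaged 6.39 to 9.35 in the arrays not injected at P5 and 7.82 to 14.1 in those injected at P5. The 18 hybridisation control probe sets averaged 13.23 to 13.65 on the P12-injected arrays and 11.86 to 12.96 on all others. Differences were tested with limma over all 30 arrays, which assumes a common spread for the 10 groups. The words "rose" and "fell" mean an adjusted p under 0.05 over 12393 genes. For second or other probe sets of a gene the adjustment was over 20380 probe sets. Errors of differences are standard errors from that fit, with n = 3 arrays a group.

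Synaptic genes were lowest in the retinas injected with CD34+ cells at P5. The mean of the 30 genes was 9.76, 10.27 and 9.98 in these 3 arrays, against 10.34 to 10.73 (median 10.53) in the 27 other arrays. The lowest group mean of the 10 groups was that of P5 CD34+ for 24 of the 30 genes. Its array 1 gave the lowest value of all 30 arrays for 17 genes. Shares over all genes were not computed for these counts. The arrays of this group also differed most among themselves: the median SD of the 30 genes was 0.275 there and 0.0751 to 0.183 in the other 9 groups. Over all genes the median SD was highest in this group too, 0.188 against 0.102 to 0.167.

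**Figure D1:**
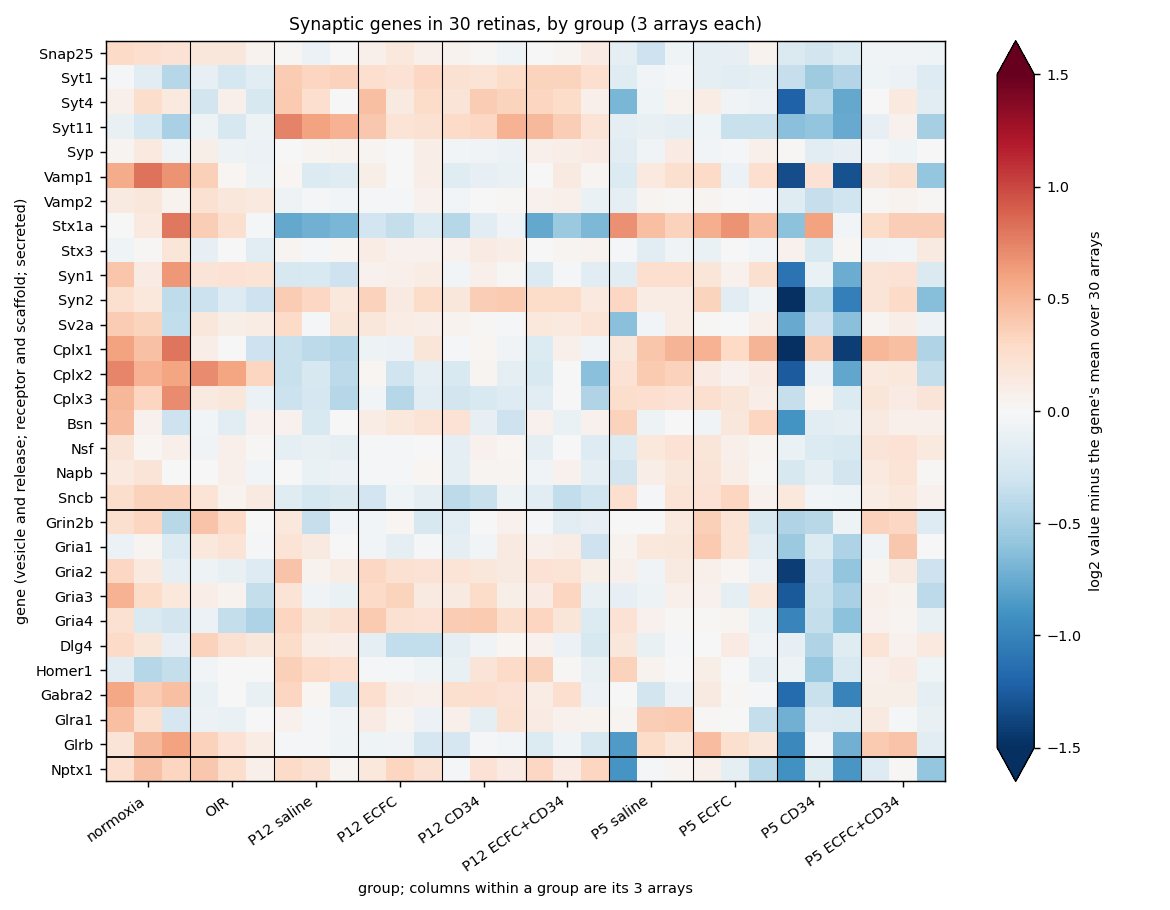
Heat map of the 30 synaptic genes (rows, by role) in the 30 arrays (columns, 3 per group), coloured by log2 value minus the gene's own mean over all arrays. The P5 CD34 columns are blue for most rows, arrays 1 and 3 more than array 2, while Snap25, Syp and Stx3 stay pale.

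Against saline at the same day, 17 of the 30 genes fell after CD34+ cells at P5 and 0 rose, with limma. The background was 5.4% of all genes called lower. The difference was negative for 29 of 30 genes, all but Stx3, and its median was -0.467, against -0.028 over all genes. Of the vesicle and release genes 10 of 19 fell (median -0.420), and of the receptor and scaffold genes 7 of 10 fell (median -0.587). All 3 CD34+ arrays lay below all 3 saline arrays for 16 of the 30 genes, where 11.3% of all genes did so. Across all 57 probe sets of these genes, including the 30 used above, 55 differences were negative, 25 fell and 0 rose. These were adjusted over 20380 probe sets, and the share called over all of them was not computed.

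The synapsins, which tether vesicles to each other and to actin, fell strongly. Syn2 read 7.43, 8.52 and 7.90 in the CD34+ arrays and 9.23, 9.04 and 9.03 in the saline arrays. It was 2.22-fold lower (-1.15 ± 0.22, adjusted p = 0.0033, limma) with no overlap. Syn1 read 10.18, 11.19 and 10.54 against 11.12, 11.54 and 11.54. Array 2 of the CD34+ group lay above saline array 1, so the groups overlapped (-0.76 ± 0.17, adjusted p = 0.0085, limma). The second Syn2 probe set differed by -0.90 and did not pass.

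All 3 complexins among the 30 genes fell. Complexins are small proteins that clamp SNARE complexes before calcium arrives. Cplx2 read 9.25, 10.41 and 9.73 after CD34+ cells and 10.72, 10.89 and 10.85 after saline, without overlap (-1.03 ± 0.20, adjusted p = 0.0035, limma). Cplx1, chosen after its values were seen because its fitted change was the largest of the 30, read 8.83, 11.39 and 9.60 against 11.18, 11.43 and 11.52. It was 2.71-fold lower on average (-1.44 ± 0.36, adjusted p = 0.014, limma), but array 2 lay within the saline range. Its other 2 probe sets fell too, by 1.38 and 1.09. Cplx3, the ribbon-synapse complexin, changed less (-0.42 ± 0.12, adjusted p = 0.028, limma).

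All 3 synaptotagmins on the list of genes described here fell. Syt1, the calcium sensor of fast release, read 12.60, 12.41 and 12.50 against 12.76, 12.90 and 12.93 (-0.36 ± 0.08, adjusted p = 0.0095, limma). Syt11, a synaptotagmin that does not act as a calcium sensor, read 9.95, 9.98 and 9.82 against 10.43, 10.47 and 10.44 (-0.53 ± 0.12, adjusted p = 0.0094, limma). These groups did not overlap, and array 1 was not the lowest for either gene. The other 2 probe sets of Syt11 differed by -0.21 and -0.04 and the second of Syt1 by -0.20, and none of them passed the test. Syt4 varied more, fell by 0.57 with overlapping arrays, and its second probe set (-0.31) did not pass.

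Among the fusion proteins the vesicle SNAREs fell and the target-membrane SNAREs did not pass. These classes were not tested against each other, and Stx1a (-0.51) differed by more than Vamp2 (-0.25). Vamp1 read 8.08, 9.63 and 8.11 against 9.20, 9.56 and 9.64, so that array 2 lay within the saline range (-0.86 ± 0.26, adjusted p = 0.043, limma). Its second probe set fell by 0.90. Vamp2 fell by 0.25 without overlap, while its second probe set differed by -0.02 and did not pass. Snap25 read 13.59, 13.53 and 13.61 against 13.68, 13.50 and 13.75, a difference of -0.07. The values were 0.04 for Stx3 and -0.51 for Stx1a (adjusted p = 0.13, limma), which read 9.16, 10.38 and 9.73 against 10.46, 10.22 and 10.12, with array 2 inside the saline range. Nsf and Napb, which take spent SNARE complexes apart, differed by -0.24 and -0.22 and did not pass, although the second probe set of Nsf (-0.35, adjusted p = 0.024, limma) and 1 of the other 4 of Napb (-0.37, adjusted p = 0.0097, limma) fell. No probe set passed for the vesicle membrane protein Syp (-0.06), the vesicle glycoprotein Sv2a (-0.38), the active-zone scaffold Bsn (-0.49) or beta-synuclein, Sncb (-0.13).

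All 4 AMPA receptor subunits, which carry fast excitatory current, fell. Gria2, the subunit that keeps the channel closed to calcium, read 9.47, 10.56 and 10.28 against 10.95, 10.83 and 11.01, and was 1.77-fold lower (-0.83 ± 0.18, adjusted p = 0.0058, limma). Its second probe set differed by -0.49 and did not pass (adjusted p = 0.2, limma). Gria4 read 8.37, 9.01 and 8.76 against 9.58, 9.43 and 9.39 (-0.75 ± 0.15, adjusted p = 0.0037, limma). Gria3 fell by 0.66 and Gria1 by 0.53, and the second probe set of Gria1 fell by 0.67. None of the 4 genes had overlapping arrays in the probe set used. The NMDA receptor subunit Grin2b (-0.37), which is among the dimmest 30% of genes, and the scaffold Dlg4 (-0.26) did not pass, although 1 of the other 2 Dlg4 probe sets fell (-0.66, adjusted p = 0.0058, limma). Homer1, which links metabotropic glutamate receptors to the scaffold, fell by 0.42, while its other 2 probe sets (-0.28 and -0.36) did not pass.

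Of the 3 inhibitory receptor subunits 2 fell. Gabra2, a subunit of the GABA-A receptor, read 6.22, 7.04 and 6.38 against 7.38, 7.11 and 7.29, without overlap (-0.71 ± 0.15, adjusted p = 0.0061, limma). The glycine receptor subunit Glra1 fell by 0.64 and is a dim probe set. Its partner Glrb (-0.44) did not pass, nor did Nptx1 (-0.37), which gathers AMPA receptors and read 9.41, 10.14 and 9.44 against 9.44, 10.29 and 10.37. The second Nptx1 probe set fell by 0.86 (adjusted p = 0.011, limma).

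**Figure D2:**
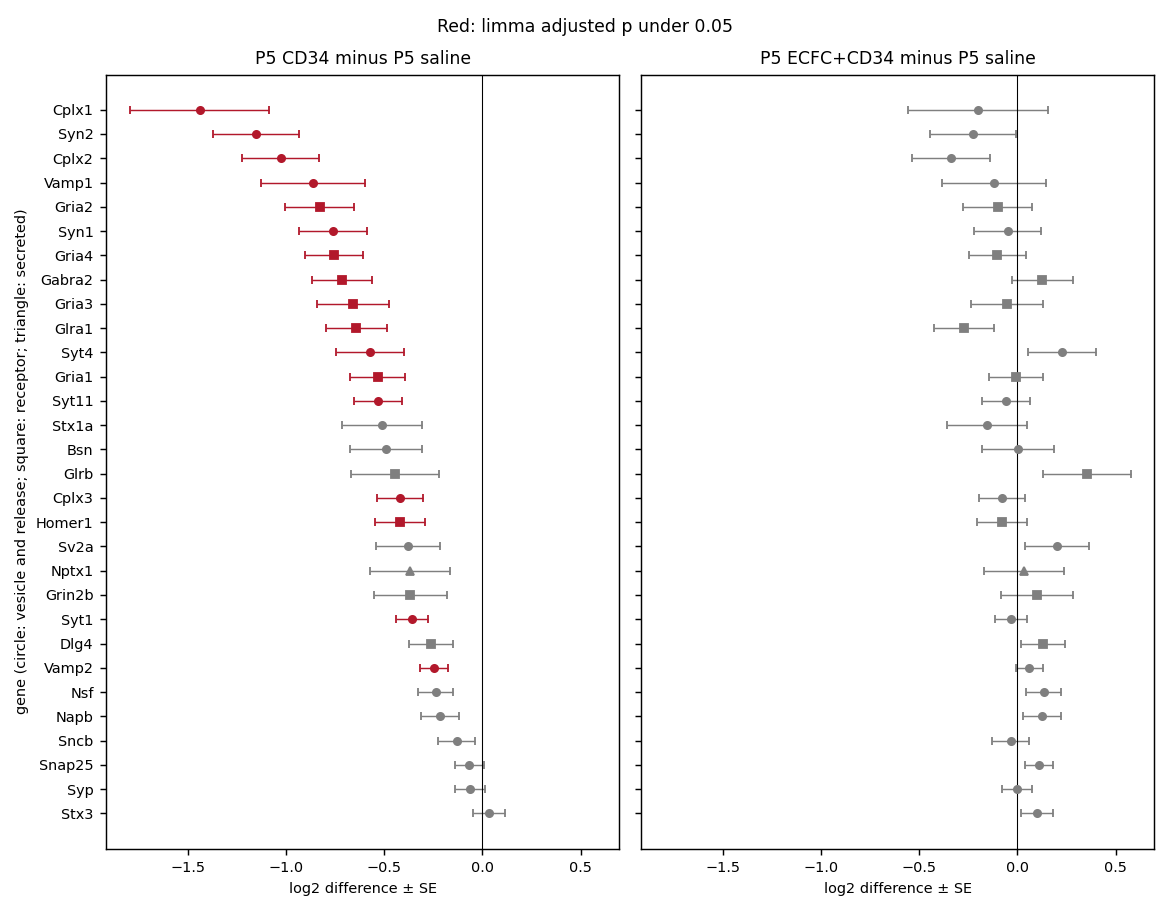
Fitted log2 differences with standard errors for each of the 30 genes, P5 CD34 minus P5 saline on the left and P5 ECFC+CD34 minus P5 saline on the right; red marks an adjusted p under 0.05 with limma. On the left 17 genes are red and all but Stx3 lie below 0, and on the right none is red.

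Other synaptic genes from textbook lists moved in the same direction. These lists were chosen with earlier results of these data known, so their counts are not independent support. Of 35 further presynaptic genes 11 fell and 0 rose, among them the synaptotagmin Syt5 (-0.62), the vesicular glutamate transporter Slc17a6 (-2.85) and Rab3c (-0.94). Of 47 further receptor and postsynaptic genes 23 fell and 0 rose, among them the nicotinic subunit Chrnb2 (-0.92), the AMPA receptor partner Cacng3 (-0.76) and the kinase Camk2a (-1.20). Their medians were -0.251 and -0.522.

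Markers of retinal neurons and of other cells moved with these genes. Of 8 ganglion cell markers 7 fell (median -1.40), and their mean was 8.07, 10.47 and 8.83 in the CD34+ arrays against 9.83 to 10.93 in the 27 others. Of 8 bipolar markers 6 fell and 1 rose (mean 10.03, 10.84 and 10.66, against 10.57 to 11.12), and of 9 amacrine markers 4 fell (mean 9.43, 10.32 and 10.03, against 10.18 to 10.73). The ganglion and amacrine lists share Sncg, Slc17a6, Slc32a1 and Slc6a9 with the list of further presynaptic genes. Of 8 rod and 6 cone markers 0 changed, with medians of 0.003 and 0.159. Of 8 microglia markers 3 rose (mean 10.18, 8.14 and 8.95, against 7.38 to 9.07) and of 11 pigment epithelium markers 5 rose (mean 10.71, 10.37 and 10.46, against 7.79 to 10.26). Of all 12393 genes 380 rose in this comparison. Of 4 astrocyte and gliosis markers 0 passed (median 1.78; mean 12.11, 9.01 and 11.2). Lens markers averaged 7.82, 14.1 and 14.03 in the CD34+ arrays and 13.85, 13.46 and 11.05 in the saline arrays. With the lens mean as a covariate 15 synaptic genes fell, and the share over all genes is not given for that setting. The part of the other cell types in the result was not tested, and in whole retina fewer cells of a type and less RNA per cell cannot be told apart.

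**Figure D3:**
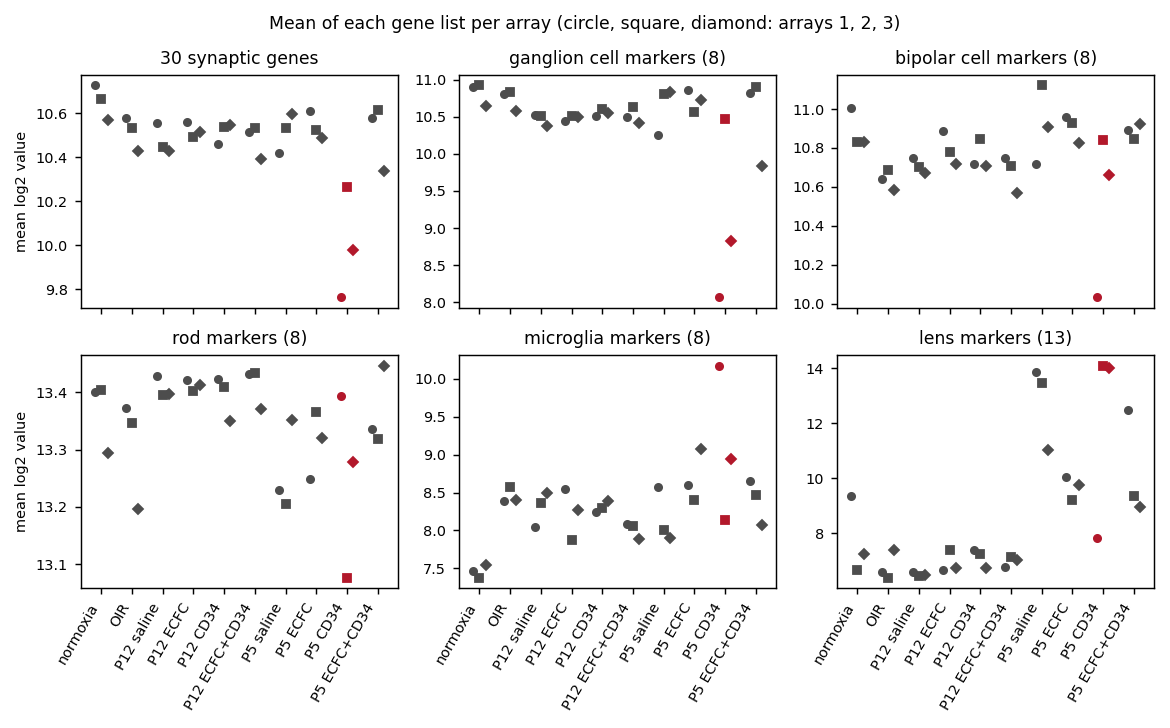
Mean log2 value of the 30 synaptic genes and of 5 marker lists in each array (circle, square and diamond for arrays 1, 2 and 3; P5 CD34 in red). In the panels of synaptic, ganglion and bipolar genes P5 CD34 array 1 is the lowest point, at 9.76, 8.07 and 10.03, and in the microglia panel it is the highest, at 10.18.

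The adjusted calls rest on the spread pooled over 30 arrays: with only the 12 arrays injected at P5, a setting chosen after seeing the data, 0 of the 30 genes passed (19 at an unadjusted p under 0.05, smallest adjusted p = 0.057, limma), and with only the 2 groups 0 passed (14 unadjusted, smallest adjusted p = 0.29). The count of 17 became 9 without CD34+ array 1, 10 without CD34+ array 3, 10 without saline array 2 and 7 without saline array 3. Shares over all genes are not given for these settings.

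The combination of ECFC and CD34+ cells at P5 was measured against the same saline arrays, and none of the 30 genes changed with limma (0 at an unadjusted p under 0.05, against 978 of all genes; 0 with trend and robust settings). The background was 0% called. Differences ran from -0.34 (Cplx2) to 0.36 (Glrb) with a median of -0.020. Syn2 read 9.13, 9.22 and 8.29 and differed from saline by -0.22, with a 95% interval of -0.68 to 0.23. Cplx1 read 11.51, 11.46 and 10.56, a difference of -0.20 with an interval of -0.94 to 0.54. For both genes array 3 was the lowest of the combination arrays and lay below all saline arrays. Array 3 also had the lowest ganglion marker mean of the group, 9.83 against 10.82 and 10.9.

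Set directly against CD34+ cells alone at P5, the combination had higher levels of 18 of the 30 genes and lower levels of 0, where 4.27% of all genes rose. All 30 differences were positive, with a median of 0.469 (all genes -0.006). The comparison uses the same 3 CD34+ arrays as the one against saline, so it is not a separate observation of their low values. Of the vesicle and release genes 11 of 19 were higher, and of the receptor and scaffold genes 7 of 10. Further presynaptic genes were higher in 9 of 35 and further receptor genes in 19 of 47.

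Gabra2 had the smallest p. It read 7.46, 7.46 and 7.24 in the combination and 6.22, 7.04 and 6.38 with CD34+ cells alone (0.84 ± 0.15, adjusted p = 0.0021, limma). Syt4 read 10.43, 10.57 and 10.27 against 9.21, 9.999 and 9.66 (0.80 ± 0.17, adjusted p = 0.0071, limma). Gria4 read 9.43, 9.41 and 9.25 against 8.37, 9.01 and 8.76 (0.65 ± 0.15, adjusted p = 0.0088, limma). None of these 3 genes overlapped between the groups. Arrays were apart and higher for 17 of the 30 genes and for 1258 of all 12393 genes. Vamp2 read 13.46, 13.50 and 13.47 against 13.26, 13.10 and 13.15 (0.31 ± 0.07), again apart. Gria2 read 10.91, 11.01 and 10.57 against 9.47, 10.56 and 10.28 (0.73 ± 0.18). Nsf read 12.46, 12.48 and 12.41 against 12.16, 12.05 and 12.03 (0.37 ± 0.09). These genes rose with arrays apart, those of Gria2 by a narrow margin. Syn2 (0.93 ± 0.22) and Syn1 (0.71 ± 0.17) rose with overlap, because combination array 3, at 8.29 and 11.06, lay below CD34+ array 2, at 8.52 and 11.19.

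With only the 12 P5 arrays 0 of the 30 genes passed in that direct comparison (23 unadjusted, smallest adjusted p = 0.066, limma), and with only the 2 groups 0 passed (17 unadjusted, smallest adjusted p = 0.21). The count of 18 became 7 without CD34+ array 1, 11 without CD34+ array 3, 6 without combination array 1 and 4 without combination array 2. Here too the shares over all genes are not given.

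**Figure D4:**
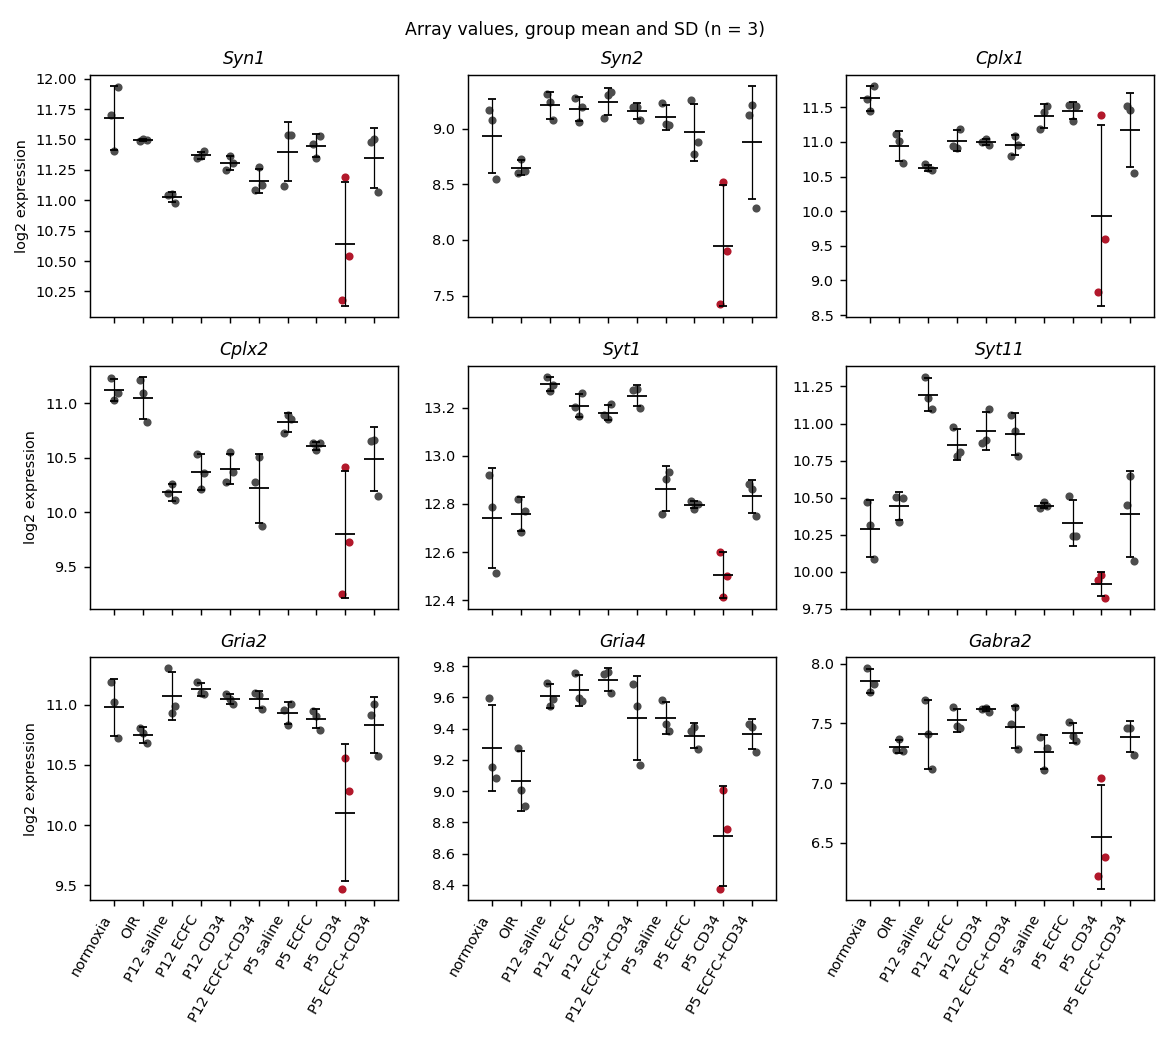
Log2 values of 9 synaptic genes in every array (points), with the group mean and SD (n = 3), P5 CD34 in red. Array 2 of P5 CD34 sits above arrays 1 and 3 for Syn1, Syn2, Cplx1, Cplx2, Gria2, Gria4 and Gabra2, but not for Syt1, and the P12-injected groups are high for Syt1 and Syt11 and low for Cplx2.

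ECFC alone at P5 changed none of the 30 genes against saline with limma (1 at an unadjusted p under 0.05, against 779 of all genes; 0 with trend and robust settings; background 0%). Differences ran from -0.38 (Glra1) to 0.42 (Glrb). Glra1 had the smallest p, with values of 5.52, 5.50 and 5.15 against 5.54, 5.87 and 5.89 (adjusted p = 0.68, limma), and this probe set is dim. Syn2 differed with an interval of -0.59 to 0.32 and Gria4 with one of -0.42 to 0.20.

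Injection of cells at P12 changed none of the 30 genes against saline at P12, by limma or with its trend and robust settings. After ECFC 4 genes had an unadjusted p under 0.05 (1996 of all genes; 0.0161% called), after CD34+ cells 1 (643 of all genes; 0% called) and after the combination 2 (1226 of all genes; 0% called). The smallest adjusted p was that of the scaffold Dlg4 after ECFC, which read 11.23, 11.01 and 11.01 against 11.66, 11.49 and 11.48, apart but not past the threshold (-0.46, adjusted p = 0.11, limma). Without ECFC array 1, 1 gene passed. Stx1a read 9.34, 9.62 and 9.72 after CD34+ cells and 9.01, 9.05 and 9.08 after saline, apart and higher by 0.51 in the fit (adjusted p = 0.92, limma). Over all 12393 genes, 1686 were apart and lower after ECFC, and 1735 apart and higher after CD34+ cells. Stx1a also had the highest difference after ECFC (0.44). For CD34+ cells the 95% interval of Syn2 was -0.42 to 0.49, that of Cplx2 -0.19 to 0.63 and that of Gria4 -0.20 to 0.41, so a fall of the size seen at P5 lay outside each of them.

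The difference between the CD34+ effects at P5 and at P12 was tested as an interaction. It was lower at P5 for 5 of the 30 genes and higher for 0 with limma, where 1.49% of all genes were lower; 29 of 30 values were negative, with a median of -0.406 (all genes -0.081). The 5 genes were Cplx2 (-1.24 ± 0.28, adjusted p = 0.032), Syn1 (-1.04 ± 0.24), Gabra2 (-0.92 ± 0.22), Gria4 (-0.86 ± 0.21) and Syn2 (-1.19 ± 0.31, adjusted p = 0.049). Each was above its P12 saline mean after CD34+ cells at P12: Syn1 read 11.25, 11.36 and 11.31 against 11.04, 11.05 and 10.98, and Cplx2 read 10.28, 10.55 and 10.37 against 10.17, 10.26 and 10.11. None of the 5 passed there. Their differences at P12 ran from 0.03 (Syn2) to 0.28 (Syn1), where the median over all genes was 0.047. Of the further receptor genes 11 of 47 had a lower effect at P5, among them Chrnb2 (-1.02), and of the further presynaptic genes 1 of 35, Syt5 (-0.72). If collection days differ as the series text says, the interaction compares ages as well as injection days. The count was 0 with only the 4 groups, 0 to 2 without any 1 array of the P12 CD34+ or P12 saline groups or without P5 CD34+ array 1 or 3 or P5 saline array 2 or 3, 4 without P5 saline array 1 and 13 without P5 CD34+ array 2.

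In untreated OIR retinas 2 of the 30 genes fell against normoxia and 0 rose, where 0.968% of all genes fell. Cplx3 read 11.08, 11.12 and 10.86 in OIR and 11.45, 11.27 and 11.66 in normoxia (-0.44 ± 0.12, adjusted p = 0.032, limma). Gabra2 read 7.28, 7.37 and 7.27 against 7.96, 7.76 and 7.83 (-0.55 ± 0.15, adjusted p = 0.04, limma). Neither gene overlapped between the groups, where 1648 of all 12393 genes were apart and lower, and 8 of the 30. Values were negative for 22 of 30 genes, with a median of -0.122 (all genes -0.018), and 11 genes had their highest group mean in normoxia. Among the further presynaptic genes 3 of 35 fell (Synpr -0.49, Sh3gl2 -0.36, Amph -0.29), and among the further receptor genes 2 of 47 (Grik1 -0.83, Gabbr1 -0.38). Both calls were near the threshold. The count was 0 without OIR array 3, normoxia array 1 or normoxia array 3, and 1 without any other array.

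Saline at P12 against untreated OIR gave 3 genes that rose and 5 that fell, where 5.95% of all genes rose and 15.4% fell. The genes that rose were Syt1, Syt11 and Gria4. Syt1 read 13.33, 13.27 and 13.29 against 12.82, 12.68 and 12.77 (0.54 ± 0.08, adjusted p = 8.3e-05, limma), Syt11 read 11.31, 11.18 and 11.10 against 10.50, 10.34 and 10.50 (0.75 ± 0.12), and Gria4 read 9.69, 9.54 and 9.59 against 9.28, 9.01 and 8.90 (0.55 ± 0.15). All 3 genes were apart, but in this comparison 2487 of all 12393 genes were apart and higher, and 6 of the 30. The second Syt1 probe set also rose (0.40), while the other 2 of Syt11 did not (-0.02 and -0.34).

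The 5 genes that fell are all vesicle and release genes, a class that makes up 19 of the 30. With 15.4% of all genes lower, 5 of 30 is close to the share over all genes. Stx1a read 9.01, 9.05 and 9.08 against 10.15, 10.02 and 9.74, 1.90-fold lower (-0.92 ± 0.205, adjusted p = 0.0024, limma), and its second probe set fell too (-0.90). Cplx2 read 10.17, 10.26 and 10.11 against 11.21, 11.09 and 10.83 (-0.86 ± 0.20). Cplx3 read 10.62, 10.69 and 10.52 against 11.08, 11.12 and 10.86, Sncb 10.11, 10.03 and 10.08 against 10.50, 10.35 and 10.43, and Vamp2 13.37, 13.42 and 13.41 against 13.68, 13.62 and 13.59. All 5 genes were apart, where 3505 of all 12393 genes were apart and lower, and 10 of the 30. The second Vamp2 probe set did not pass (-0.21, adjusted p = 0.19, limma). Among genes whose own probe set did not pass, another probe set fell for Bsn (-0.59) and Dlg4 (-0.72) and rose for Syn2 (1.03), Homer1 (0.50) and Napb (0.48). Of the further presynaptic genes 11 of 35 fell (Napa -0.69, Slc32a1 -0.66, Slc6a9 -0.56) and 0 rose, and of the further receptor genes 9 of 47 fell (Cnih2 -0.87, Cacng7 -0.86, Grik5 -0.79) and 2 rose.

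The split of directions in the P12 saline comparison depended on the scaling. It was 5 higher and 4 lower after quantile normalization, and 6 higher and 2 lower after median centring. The share of all genes called is not given for these settings, so the counts do not tell a shift of the 30 genes from one of all genes. Centring took the median over all genes from -0.029 to 0.086 and that of the 30 genes from -0.033 to 0.082. Hybridisation controls averaged 13.25 to 13.48 on the P12 saline arrays and 12.44 to 12.52 on the OIR arrays. The saline injection and this difference between arrays therefore cannot be told apart in this comparison. With the control mean as covariate 2 genes rose and 2 fell.

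Saline at P5 against untreated OIR gave 1 gene that fell and 0 that rose, where 4.88% of all genes fell. Snap25 read 13.68, 13.50 and 13.75 against 13.97, 13.98 and 13.85 (-0.29 ± 0.07, adjusted p = 0.015, limma), apart by a margin smaller than the spread of the saline arrays. Of all 12393 genes 1733 were apart and lower. The median of the 30 genes was 0.004. Of the further receptor genes Grik1 (0.79) and Shank3 (0.44) rose and Cacng7 fell (-0.49). All 13 lens markers (median 6.65) and 6 of 11 pigment epithelium markers rose in the same comparison, where 472 of all 12393 genes rose. With the lens mean as a covariate 0 of the 30 genes passed. Snap25 did not pass without saline array 2, OIR array 1 or OIR array 2 (adjusted p = 0.078, 0.053 and 0.06, limma).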

How the data were processed

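Total RNA of 30 retinas (100 ng each) was amplified, biotin-labelled and hybridised to 1 expression array each, per the labels' protocols. The authors deposited log2 values, 1 for each of 22690 probe sets on each array. Partek is named, with no version, in the submitters' processing notes. How background, summarisation and normalization were handled is not stated in the sources used here. The deposited values were used as they are. By the platform annotation 64 probe sets were controls, 20380 had 1 symbol (29 without a RefSeq match), 691 several and 1555 none. The brightest probe set per symbol left 12393 genes.

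The test was limma 3.58.1 (R 4.3.3) on all 30 arrays with a mean for each group. Its eBayes p-values are two-sided and were adjusted per comparison by Benjamini-Hochberg over 12393 genes. Second or other probe sets of the genes were tested in a separate fit, adjusted over 20380 probe sets. The script was tested on simulated data. No depth exists for arrays, and 3 arrays a group limit precision. The genes, the marker lists and the list of further synaptic genes were chosen with earlier results of these data known. By rule, values by array are given for up to 8 genes a comparison by smallest p past the threshold, or up to 3 where none passed. Outside that rule they are also given for Cplx1, Vamp1, Snap25, Stx1a and Nptx1 after CD34+ cells at P5. The same holds for Syn2 and Cplx1 in the P5 combination against saline. Of each further list up to 3 genes are named. Arrays of equal replicate number were not paired: their residual correlations ran from -0.453 to 0.445, and in none of 10 comparisons were all above 0.1. Alternatives were quantile normalization, median centring, trend and robust eBayes, leaving out the dimmest 30% of genes, the mean of all probe sets, fewer groups, a replicate block, 2 covariates and leaving out each array. Counts under these alternatives cover the 30 genes and are given without the share of all genes called.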

Additional observations from a re-analysis of the deposited data

Results flagged for a closer look

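The effect of CD34+ cells on 5 synaptic genes differed between injection days by limma's interaction test over all genes. The effect at P5 minus that at P12 was -1.04 for Syn1, -1.19 for Syn2, -1.24 for Cplx2, -0.86 for Gria4 and -0.92 for Gabra2. For each gene the group mean fell below saline at P5 and lay above saline at P12. At P12 none of the 5 passed on its own. The differences there ran from 0.03 (Syn2, adjusted p = 0.99, limma) to 0.28 (Syn1, adjusted p = 0.92, limma). The median over all genes there was 0.047. The count of such genes among the 30 was 0 without P5 CD34+ array 1 and 13 without P5 CD34+ array 2.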

How the results depend on the processing

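Differences in the 11 comparisons are open to the small number of arrays, 3 a group, to the spread pooled over groups, and to collection days that may differ between injection days. Of 764 alternative values for the 47 named gene results, 624 kept direction and side of the threshold, 138 no longer passed, 1 newly passed and 1 reversed: Dlg4 after CD34+ cells at P12 was 0.0115 with the mean of all its probe sets. With only the groups compared, the number of genes changed was 1 for OIR, 0 for saline at P5, 0 for CD34+ at P5, 0 for the combination against CD34+ and 0 for the interaction. With only the 12 P5 arrays, a setting chosen after seeing the data, it was 0 for CD34+ and 0 for the combination against CD34+. The lens covariate gave 1 for OIR and 0 for saline at P5, and the hybridisation control covariate gave 1 for OIR, 4 for saline at P12, 4 for saline at P5 and 10 for the interaction. For saline at P5 quantile normalization, trend and robust settings and leaving out dim genes gave 2 each. Leaving out groups that are not compared keeps the fitted difference and changes only the pooled spread and the number of arrays behind it. Leaving out an array of a compared group changes the difference as well. Otherwise the cause was not tested. A replicate block, although the numbers were not found to pair arrays, gave the main count in every comparison: 2, 8 and 1 for OIR and the saline groups, 17 for CD34+ at P5, 18 for the combination against CD34+, 5 for the interaction and 0 for the other 5. Leaving out each array in turn gave 0 to 1 for OIR, 6 to 8 for saline at P12, 0 to 2 for saline at P5, 0 to 1 for ECFC at P12, 7 to 20 for CD34+ at P5, 4 to 20 for the combination against CD34+, 0 to 13 for the interaction and 0 for the other 4 comparisons.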
